A study of Mus musculus with 10 samples.

Results

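The major urinary proteins are small lipocalins, barrel-shaped carriers that mouse hepatocytes secrete into the blood and the kidney passes into urine. There they bind volatile pheromones and act as scent signals themselves. Their genes form a cluster on mouse chromosome 4, and many of the copies arose by recent duplication. In mouse liver the family is known as a readout of pulsatile growth hormone, acting through the growth hormone receptor, the kinase JAK2 and the transcription factor STAT5B, and as higher in males. Androgens, thyroid hormone and glucocorticoids are also known to act on it. The 6 genes described here, Mup1, Mup2, Mup3, Mup8, Mup20 and Mup21, were taken by gene symbol from a table of 17359 genes. The table held 16 other Mup genes and 2 Mup pseudogenes, and all 6 members passed the filter on low counts.

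Livers of mice fed a high-fat diet were compared across the phases of a repeated week of restricted and free feeding. All 3 groups ate the high-fat diet. The ad libitum controls (AL, n = 3, labelled replicates 2, 3 and 4) fed freely. The restricted group (LC, n = 4, replicates 1 to 4) was sampled on day 3 of the cycle, in which days 1 and 4 carried a 50% cut in calories and days 2 and 3 a cut of 70%. The refed group (RF, n = 3, replicates 1 to 3) was sampled on day 7, the last of the free-feeding days 5 to 7. The sources used here give neither strain, sex, age nor time of day, nor whether the samples are separate animals, so a p-value reflects only how these samples scatter.

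Library totals lay between 13871533 and 15899479 estimated counts. Defining genes of hepatocytes such as Alb, Apoa1 and Ttr were abundant in every library. The summed level of 10 hepatocyte markers spanned 91826 to 111833 CPM, counts rescaled for comparable libraries, in AL, 65087 to 76214 in LC and 86876 to 92335 in the RF libraries. Most of it was Alb, at a mean of 58883 CPM in AL and 36726 in LC. At LC against AL, 6 of the 10 were called lower and 0 higher, beside 15.6% and 16.0% of all genes. The median log2 fold change of the 10 was −0.47, and −0.15 when libraries were scaled by their totals alone. The summed level of 10 sinusoidal endothelial markers spanned 263 to 279 CPM in AL, 383 to 399.6 in LC and 334 to 388 in the RF libraries. Markers of other cells also differed between groups. Adipocyte markers (4 of 5 in the table) summed to 49.5 to 142 CPM in AL, 2.83 to 18.6 in LC and 1.54 to 3.2 in RF libraries. Most of this sum was Cfd, the only one tested, at means of 101, 8.77 and 2.07 CPM. Cfd fell at LC against AL (log2 fold change −3.53, adjusted p = 0.0055, edgeR) and was not called at RF against AL (−5.61, adjusted p = 0.11). The 6 erythroid markers summed to 473 to 716 CPM in AL, 274 to 407 in LC and 325 to 1029 in RF libraries, and the 10 stellate cell and fibroblast markers to 193 to 201, 151 to 197 and 243 to 287. The summed levels of Kupffer cell, cholangiocyte, T and NK cell, B and plasma cell and neutrophil markers overlapped between AL and both other groups. In bulk tissue, fewer cells of a type and less RNA per cell cannot be told apart, and the part of these shifts in the results below was not tested.

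How far the copies can be told apart differs within the 6. In the coding sequences of 1 reference transcript per gene (GENCODE M21, GRCm38), Mup1 and Mup2 were 99.4% identical, Mup1 and Mup8 99.3% and Mup2 and Mup8 99.1%. Counted from 1 at the A of the start codon, Mup2 differed from Mup1 by G25T, G91C and A472G. Mup8 differed from Mup1 by C42G, A191G, T220G and A472G. Mup20 was 90.6% identical to Mup1, and Mup3 only 82.4%. The same 60-base stretch, bases 163 to 222 of the Mup1 coding sequence, is given for each member because it carries the contrast between the near-identical and the separable copies. Capitals mark bases that differ from Mup1.
Mup1: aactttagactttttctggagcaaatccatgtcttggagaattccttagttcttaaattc
Mup2: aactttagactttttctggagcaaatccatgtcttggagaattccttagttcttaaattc
Mup8: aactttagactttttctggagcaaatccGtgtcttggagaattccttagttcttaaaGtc
Mup20: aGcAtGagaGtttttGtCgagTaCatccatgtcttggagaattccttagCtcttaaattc
Mup3: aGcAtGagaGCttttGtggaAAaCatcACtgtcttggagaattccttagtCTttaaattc
Mup21: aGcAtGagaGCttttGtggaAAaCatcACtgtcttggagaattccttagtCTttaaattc
Mup1 and Mup2 were identical over this stretch, and Mup8 differed from them at 2 bases. Mup20 differed from Mup1 at 9 bases, and Mup3 and Mup21, identical to each other here, at 13.

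Over whole transcripts the members fell into the same sets. Of all stretches of 50 bases, 100% in Mup2, 94.8% in Mup1 and 93.8% in Mup8 also occurred in the transcript of another gene. The share was 15.6% in Mup3 and 19.3% in Mup21. In Mup20 it was 50.5%, of which nearly all lay in the pseudogene Mup-ps19 (48.0% of the stretches of Mup20). The gene table held no row named Mup-ps19, so its counts could not be examined. Only 4.44% of the stretches of Mup20 occurred in another member. A count for Mup1, Mup2 or Mup8 therefore rests on a model that divides shared reads among copies. Of the members' values, 98.3% were not whole numbers, and these included values of Mup3, Mup20 and Mup21. Counts of Mup3, Mup20 and Mup21 therefore also rest in part on such a model, and how far they do was not tested. Of the 22 Mup genes, 16 shared at least 60% of their stretches, a limit chosen after the values were seen, and 13 of these are not members.

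Per unit of transcript length, Mup20 and Mup3 were the most abundant members at AL. In FPKM, fragments divided by transcript length and depth, Mup20 stood at 9095, 8588 and 13692 in AL replicates 2, 3 and 4. Mup3 stood at 8231, 11236 and 9005, a range that overlapped with Mup20. Mup2 followed at 4256 to 5047, Mup1 at 2000.2 to 4080.4 and Mup21 at 1517 to 1894, each without overlap with its neighbours in this order. Mup8 was nearly silent by comparison, at 8.56 to 14.3. The order at LC was less clear, since Mup2 (3572 to 11305), Mup3 (5358 to 7791) and Mup20 (5172 to 7438) overlapped. At RF the order of AL returned, with Mup20 at 9387 to 13029, Mup3 at 8634 to 9194, Mup2 at 5126 to 6264, Mup1 at 1953 to 3051, Mup21 at 1399 to 1543 and Mup8 at 28.2 to 39.8, with no overlap between neighbours.

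**Figure D1:**
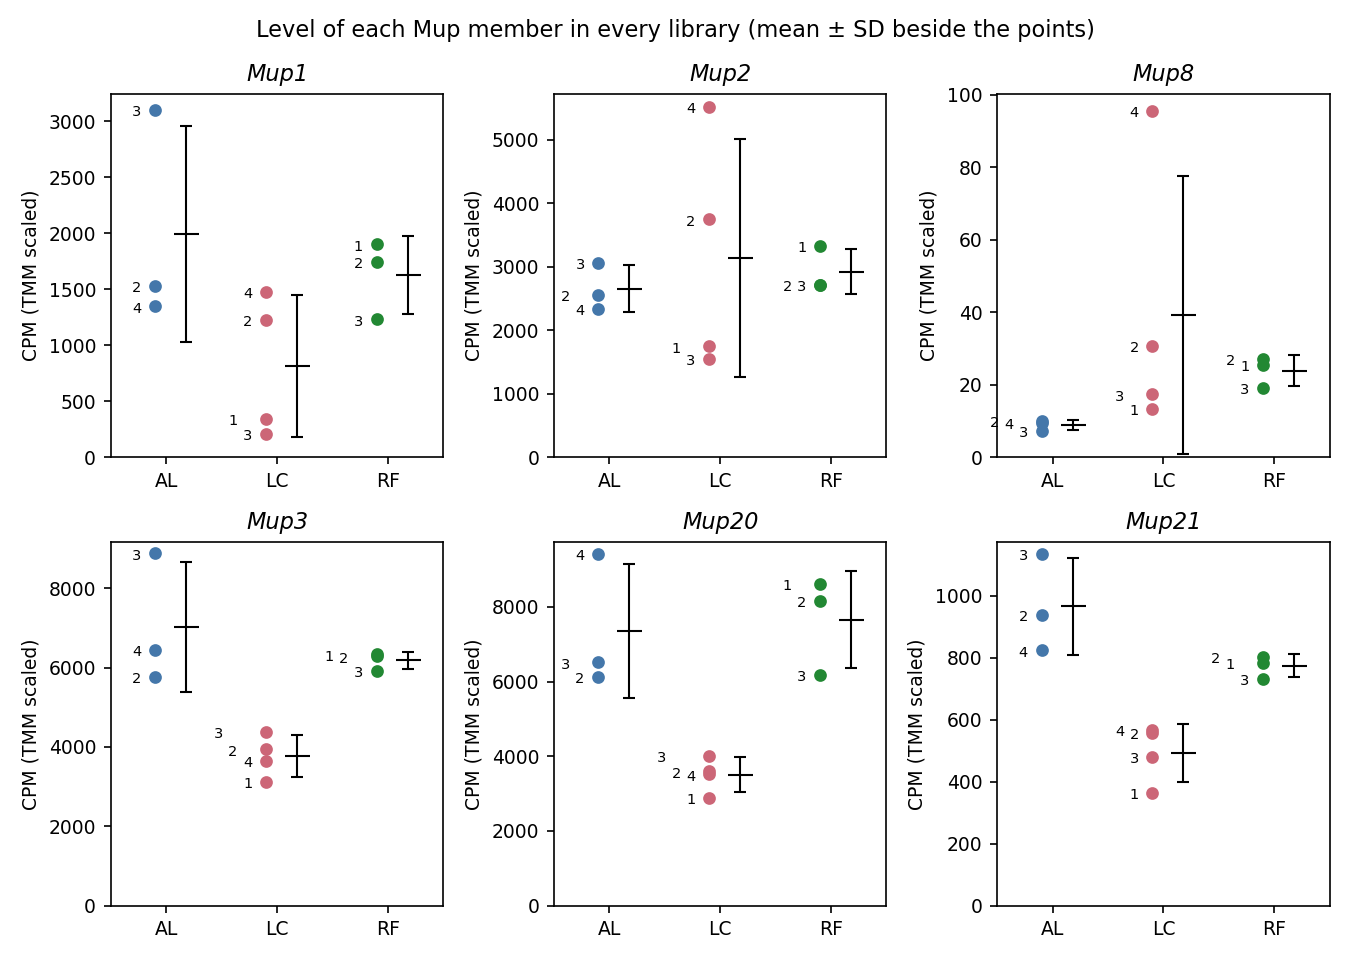
Level of each member in CPM (linear axis from 0, trimmed-mean scaling) in the AL (n = 3), LC (n = 4) and RF (n = 3) libraries, as points labelled with the replicate number, with the mean ± SD to the right. Every LC library lies below every AL and RF library for Mup3, Mup20 and Mup21, while the LC libraries spread widely for Mup1, Mup2 and Mup8.

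At day 3 of restriction, the 3 members with the most sequence of their own were lower. Mup20, Mup21 and Mup3 fell to about the same extent, by 1.07, 0.97 and 0.90 on the log2 scale. Mup8, the member with the lowest level, rose, with a call that rested on the libraries and settings used. Mup1 and Mup2 did not pass the test. In all, 3 of the 6 members were called lower and 1 higher at LC against AL (edgeR quasi-likelihood test, adjusted p below 0.05 over all 12789 genes tested). Of all genes 31.5% were called, 15.6% lower and 16.0% higher. The groups did not overlap for these 4 members, as for 35.8% of all genes, 17.1% lower and 18.7% higher. Scaling by library totals alone moved the median of all genes up by 0.31 on the log2 scale. It gave 4395 genes higher and 686 lower, beside 2045 and 1989, and the same numbers of members were called in each direction. The falls were smaller with this scaling, at log2 fold changes of −0.76 for Mup20, −0.66 for Mup21 and −0.57 for Mup3.

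Mup20 encodes darcin, a male urinary pheromone that binds volatiles and itself attracts females. Its level was 6116, 6511 and 9409 CPM in AL replicates 2, 3 and 4. In LC replicates 1 to 4 it was 2889.8, 3596, 4012 and 3517 CPM. It stood at 8624, 8166 and 6188 CPM in RF replicates 1 to 3. Every LC library lay below every other library, while AL and RF overlapped. The mean at LC was 2.1-fold lower than at AL (log2 fold change −1.07, SE 0.18, adjusted p = 0.001), at 3504 ± 463 against 7345 ± 1798 CPM (SD, n = 4 and 3, edgeR).

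Mup3 lies, with Mup21, outside the run of near-identical copies in sequence, and both encode a lipocalin of the same family. Mup3 was counted at 5761, 8875 and 6448 CPM at AL, at 3115, 3935, 4376 and 3647 CPM at LC and at 6333, 6282 and 5925 CPM at RF. The LC libraries were again the lowest, and the RF libraries lay within the range of AL. The fall at LC was 1.87-fold (log2 fold change −0.90, SE 0.16, adjusted p = 0.0016, edgeR).

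Mup21 was counted at 938, 1134 and 823 CPM at AL, at 363, 556, 480.2 and 566 CPM at LC and at 783, 803 and 731 CPM at RF. The groups did not overlap, with LC lowest and RF between LC and AL. The fall at LC was 1.96-fold (log2 fold change −0.97, SE 0.16, adjusted p = 0.0011, edgeR). The calls of Mup20, Mup3 and Mup21 at LC against AL held in each of the 20 alternative settings tried, with adjusted p-values of at most 0.012.

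Mup1, a copy that has also been described in mice as a circulating factor in glucose metabolism, was counted at 1533, 3103 and 1347 CPM at AL. The LC libraries gave 343, 1228, 207 and 1475 CPM, and the RF libraries 1902, 1746 and 1231 CPM. LC replicates 1 and 3 lay below all other libraries, while LC replicates 2 and 4 lay near or within the AL range. The log2 fold change at LC against AL was −1.29 with an SE of 0.67 (adjusted p = 0.18, edgeR). That estimate was larger in size than those of Mup3, Mup20 and Mup21, and its SE was wider.

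Mup2 was counted at 2557, 3062 and 2340.2 CPM at AL, at 1747, 3747, 1550.3 and 5519.6 CPM at LC and at 3333, 2719 and 2717 CPM at RF. LC replicates 1 and 3 were again the lowest libraries and LC replicates 2 and 4 the highest, so that LC lay on both sides of AL and RF. The log2 fold change at LC against AL was 0.24 (SE 0.40, adjusted p = 0.67, edgeR). Without LC replicate 4 it was −0.18.

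Mup8 was counted at 9.94, 7.33 and 9.38 CPM at AL. It stood at 13.4, 30.7, 17.3 and 95.6 CPM in LC replicates 1 to 4 and at 25.5, 27.1 and 19.1 CPM at RF. All LC and RF libraries lay above AL, and LC replicate 4 lay far above the other LC libraries. The log2 fold change at LC against AL was 2.14 (SE 0.70, adjusted p = 0.048, edgeR). Without LC replicate 4 it was 1.20 (adjusted p = 0.012). The call was lost in 10 of 20 alternatives, among them each fit without 1 AL library (adjusted p = 0.10, 0.15 and 0.13 without replicates 2, 3 and 4), without LC replicate 2 (0.069), without RF replicates 1, 2 or 3 (0.076, 0.074 and 0.072), size factors by relative log expression (0.051), every gene kept whatever its count (0.082) and the compared groups only (0.11). Of its 50-base stretches 93.8% occur in other genes and the part of the division of reads in this rise was not tested.

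**Figure D2:**
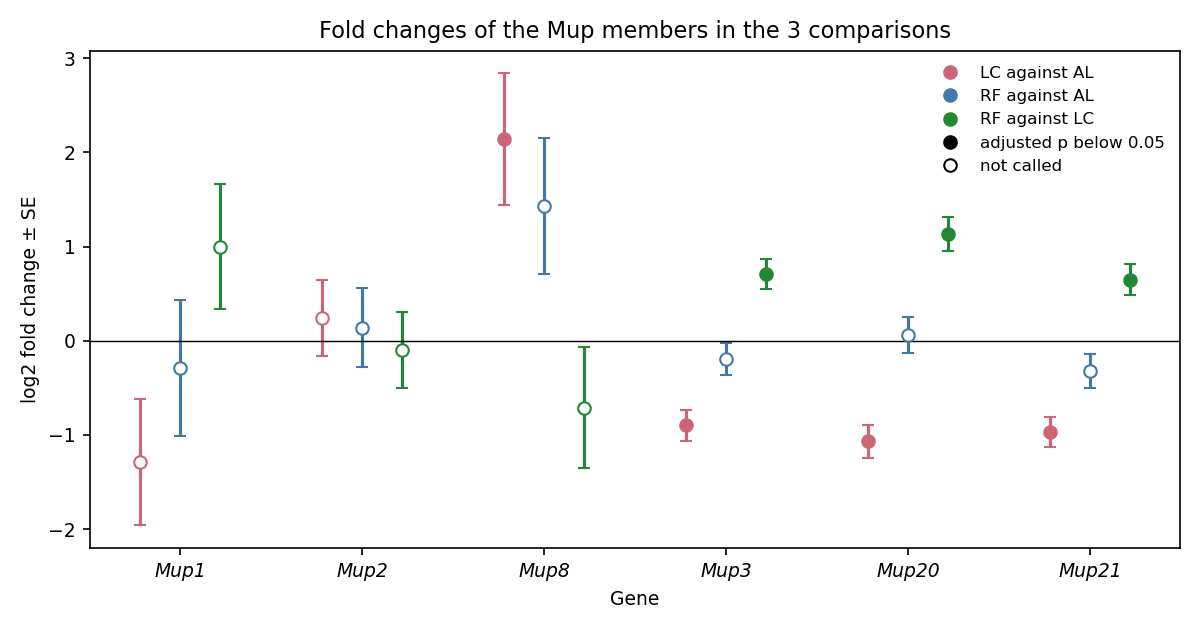
Log2 fold change ± SE (edgeR) of each member at LC against AL, RF against AL and RF against LC, filled where the adjusted p lay below 0.05 over 12789 genes. Mup3, Mup20 and Mup21 fall at LC against AL and rise at RF against LC with narrow errors, while Mup1, Mup2 and Mup8 have wide ones.

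By refeeding day 7, Mup20, Mup3 and Mup21 had risen again from their restricted levels. At RF against LC, 3 of the 6 members were called higher and 0 lower, beside 22.1% of all genes called, 11.4% higher and 10.7% lower. The groups did not overlap for these 3 members, as for 34.1% of all genes, 17.7% higher and 16.5% lower. Mup20 rose 2.19-fold (log2 fold change 1.13, SE 0.18, adjusted p = 0.0015, edgeR). Mup3 rose 1.64-fold (0.71, SE 0.16, adjusted p = 0.0085) and Mup21 1.57-fold (0.65, SE 0.16, adjusted p = 0.014). Without RF replicate 2 the adjusted p of Mup21 was 0.055. The log2 fold changes of Mup1 (1.00, SE 0.66), Mup2 (−0.10, SE 0.40) and Mup8 (−0.71, SE 0.64) did not pass, with adjusted p-values of 0.32, 0.88 and 0.46.

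Between RF and AL, 0 of the 6 members passed in edgeR, and 0 passed in DESeq2, and 0.0547% of all genes were called in edgeR, 0.0156% higher and 0.0391% lower. At an unadjusted p below 0.05 the count was also 0 of 6, against 10.8% of all genes. The log2 fold changes were 0.06 for Mup20 (SE 0.19), −0.19 for Mup3 (SE 0.17), −0.32 for Mup21 (SE 0.18), −0.29 for Mup1 (SE 0.72), 0.14 for Mup2 (SE 0.42) and 1.43 for Mup8 (SE 0.72). Mup21 at RF lay below and Mup8 above every AL library, 2 of 6 members, beside 18.9% of all genes that did not overlap, 9.56% lower and 9.38% higher. With only the compared groups in the fit, Mup8 passed at an adjusted p of 0.042. The comparisons at LC against AL and RF against AL share their control libraries, and those at LC against AL and RF against LC share the LC libraries, so their values are not independent.

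Summed over the 6 members, the share of library counts was 1.61%, 1.88% and 1.86% at AL, 0.972%, 1.39%, 1.25% and 1.59% at LC and 2.02%, 1.91% and 1.63% at RF. The LC libraries were the lowest, but LC replicate 4 lay only just under AL replicate 2. Most stretches of Mup1, Mup2 and Mup8 also occur in copies outside the 6, so this sum depends on how reads were divided. The mean was 1.78 ± 0.15% at AL, 1.30 ± 0.259% at LC and 1.85 ± 0.205% at RF (SD, n = 3, 4 and 3). As a share of summed FPKM, AL stood at 2.85% to 3.41% and LC at 1.84% to 2.99%, which overlapped. Split by sequence, Mup3, Mup20 and Mup21 together took 1.22% to 1.52% of counts in AL, 0.731% to 1.04% in LC and 1.24% to 1.52% in RF libraries. Mup1, Mup2 and Mup8 together took 0.337% to 0.51% in AL, 0.209% to 0.76% in LC and 0.384% to 0.507% in RF libraries, with LC on both sides of the other groups.

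The members did not move in proportion. Mup2 made up 11.5% to 15.1% of the members' summed counts in AL, 14.6% to 37.2% in LC and 13.8% to 16.2% in RF libraries. Mup1 made up 6.61% to 13.7% in AL, 1.94% to 9.95% in LC and 7.32% to 9.06% in RF libraries. Mup20 made up 28.7% to 46.2% in AL, 23.7% to 37.7% in LC and 36.8% to 41.4% in RF libraries, and Mup3 31.6% to 39.1%, 24.6% to 41.1% and 30.2% to 35.2%. Mup21 kept a narrow share of 3.73% to 5.55% across all 10 libraries.

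**Figure D3:**
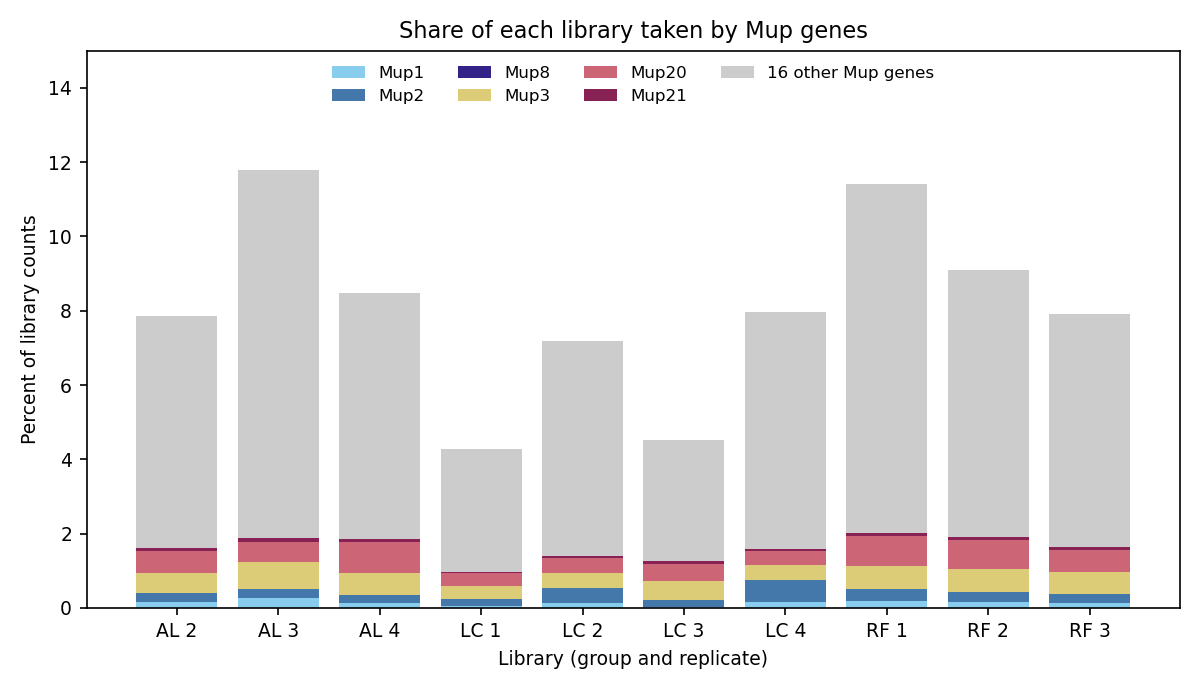
Percent of each library's counts taken by the 6 members (coloured) and by the 16 other Mup genes (grey), one bar per library, stacked from 0. The members take between 0.972% and 2.02%, and the LC bars are the shortest in the coloured part.

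The 22 Mup genes together took 7.85%, 11.8% and 8.47% of counts at AL, 4.29%, 7.19%, 4.52% and 7.96% at LC and 11.4%, 9.1% and 7.9% at RF. LC replicates 1 and 3 lay well below all others, while LC replicate 4 lay within the range of AL. As reads were divided here, the members made up 15.9% to 27.7% of this total, and most Mup counts were assigned to other copies. These were led by Mup19 (25732 ± 9471 CPM at AL), Mup22 (24655 ± 7809) and Mup7 (14037 ± 8812, SD, n = 3). The 16 copies that shared at least 60% of their stretches took 6.63% to 10.4% of counts in AL, 3.47% to 7.13% in LC and 6.66% to 9.85% in RF libraries, and their sum does not depend on how reads were divided among these 16.

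Of the 14 other Mup genes tested, 5 were called lower and 0 higher at LC against AL, beside 15.6% and 16.0% of all genes. These were Mup6 (log2 fold change −2.53), Mup12 (−2.30), Mup22 (−1.78), Mup18 (−1.75) and Mup9 (−1.49), with adjusted p-values between 0.00016 and 0.014 in edgeR. The count depended on the method, with 11 of 14 at an unadjusted p below 0.05 and 10 of 14 in DESeq2. The groups did not overlap, with LC lower, for 9 of 14, beside 17.1% of all genes. Mup6, with 4.33% of shared stretches, is the most distinct of the tested genes but stood at only 6.34 ± 3.86 CPM at AL (SD, n = 3). At RF against LC, 5 of 14 were called higher and 0 lower, beside 11.4% and 10.7% of all genes. The 5 were Mup6 (2.88), Mup9 (1.59), Mup13 (1.48), Mup22 (1.42) and Mup18 (1.29). In either direction, 8 of 14 had an unadjusted p below 0.05 there, and DESeq2 called 7. At RF against AL, 0 of 14 were called in edgeR, with 0 at an unadjusted p below 0.05 and 0 in DESeq2. Mup4 and Mup5 did not pass the filter, with at most 1 and 5.48 estimated counts in a library. The pseudogene Mup-ps12 was called lower at LC against AL (−0.74, adjusted p = 0.035), and Mup-ps16 (−0.65, adjusted p = 0.056) was not.

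The near-identical pair of Mup10 and Mup22, picked after their values were seen, had log2 fold changes of opposite sign at LC against AL, of which only that of Mup22 passed. Of the stretches of Mup22, 92.9% also occurred in Mup10. Mup10 was counted at 8251, 2583 and 2281 CPM at AL and at 8201, 12438, 8312 and 13842 CPM at LC. Its log2 fold change was 1.29 (SE 0.45, adjusted p = 0.057, edgeR), against −1.78 for Mup22. Their summed share of counts was 2.40%, 2.91% and 2.42% at AL, 1.79%, 2.17%, 1.92% and 2.06% at LC and 2.6%, 2.18% and 2.42% at RF. The sum was lower in each LC library than in any AL library.

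**Figure D4:**
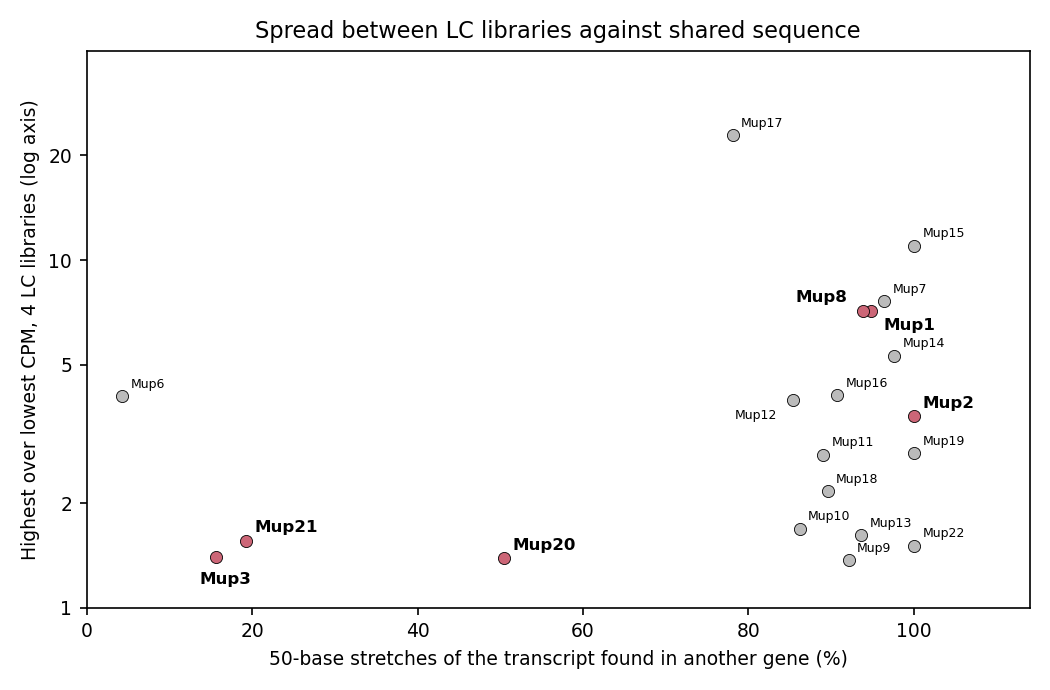
Ratio of the highest to the lowest CPM among the 4 LC libraries (log axis) against the percent of 50-base transcript stretches found in another gene, for the 20 tested Mup genes, members in red. Mup3, Mup20 and Mup21 lie between 1.39 and 1.56, and Mup1, Mup2 and Mup8 lie at 7.13, 3.56 and 7.15.

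Among the 6 members, the spread within LC was narrow in Mup3, Mup20 and Mup21 and wide in the other three. The highest LC library exceeded the lowest by a ratio of 1.40 for Mup3, 1.39 for Mup20 and 1.56 for Mup21. The ratio was 7.13 for Mup1, 3.56 for Mup2 and 7.15 for Mup8. Over all tested Mup genes the spread did not always go with sharing. Mup9 and Mup22, with 92.1% and 100% of stretches shared, had ratios of only 1.37 and 1.51, while Mup6, with 4.33% shared, had a ratio of 4.06. Deviations of log2 CPM from the group means, over 10 libraries that share their depth and scaling, correlated at 0.95 between Mup1 and Mup2 and at 0.875 between Mup2 and Mup8, as a description. Mup21 deviated with these copies as well, at 0.734 with Mup1, 0.718 with Mup2 and 0.597 with Mup8, and at 0.659 with Mup3. Mup20 did so less, at −0.0452 with Mup1, 0.00906 with Mup2, 0.215 with Mup8, 0.292 with Mup3 and 0.0981 with Mup21. In these values LC replicates 2 and 4 were high, and LC replicates 1 and 3 low, in Mup1, Mup2, Mup8 and, over a narrower range, Mup21. Mup3 and Mup20 did not have this order.

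**Figure D5:**
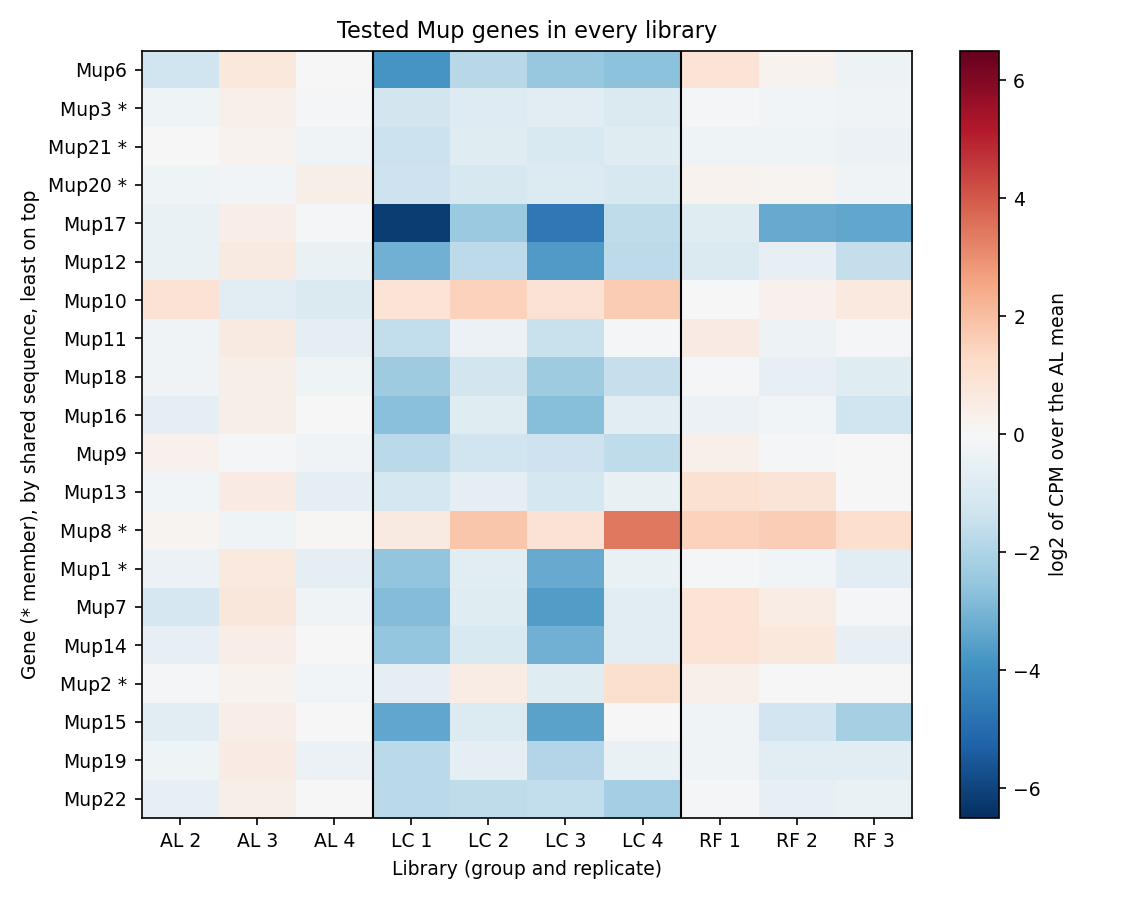
Log2 of CPM over the AL mean for the 20 tested Mup genes (rows, ordered by shared sequence with the least on top, members starred) in the 10 libraries (columns). LC replicates 1 and 3 are the lowest columns for most near-identical copies, while Mup3, Mup20 and Mup21 are lower in all 4 LC libraries, and Mup8 and Mup10 lie above their AL mean.

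Promoters of Mup3 and Mup21, which fell together at LC, are shown with that of Mup2, which did not pass, as the 250 bases before the RefSeq start (GRCm38.p6). RefSeq tables matched 3 of the 6 members. Capitals mark TATATAA and TGTTCT, the latter being AGAACA on the other strand.
Mup3, chr4:62087318-62087567, minus strand: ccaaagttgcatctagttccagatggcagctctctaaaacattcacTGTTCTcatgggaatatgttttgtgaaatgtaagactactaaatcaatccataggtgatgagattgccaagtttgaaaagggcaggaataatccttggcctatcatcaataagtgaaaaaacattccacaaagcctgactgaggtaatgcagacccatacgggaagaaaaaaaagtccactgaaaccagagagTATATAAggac
Mup21, chr4:62150842-62151091, minus strand: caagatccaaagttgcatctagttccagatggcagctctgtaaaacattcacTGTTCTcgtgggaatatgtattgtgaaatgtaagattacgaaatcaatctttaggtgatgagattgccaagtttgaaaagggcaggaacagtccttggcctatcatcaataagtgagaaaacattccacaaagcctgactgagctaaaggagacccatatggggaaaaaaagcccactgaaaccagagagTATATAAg
Mup2, chr4:60139857-60140106, minus strand: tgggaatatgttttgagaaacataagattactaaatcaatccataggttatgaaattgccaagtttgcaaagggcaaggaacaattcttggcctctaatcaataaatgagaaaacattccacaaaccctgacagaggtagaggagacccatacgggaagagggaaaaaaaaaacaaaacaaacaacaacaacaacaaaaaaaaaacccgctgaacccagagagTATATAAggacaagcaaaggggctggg
Where they align, Mup3 and Mup21 were 93.4% identical over 244 bases and Mup2 and Mup3 79.6% over 196. TATATAA began 27 bases before the start in Mup2, 11 in Mup3 and 8 in Mup21, and occurred in 11 of 14 Mup promoters and in 3.04% of 32851 mouse promoters of this length, searched on both strands. AGAACA, a motif bound by steroid receptors, occurred in 2 of 14, Mup3 and Mup21, and in 16.1% of all. TTCNNNGAA, the form of a STAT site, occurred in 0 of 14 and in 7.02% of all. These motifs do not overlap each other in the stretches shown, and a match or its lack describes only these letters in this window.

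Among genes of growth hormone and STAT5 signalling, 3 of 17 tested were called higher and 1 lower at LC against AL. Of all genes 31.5% were called, 16.0% higher and 15.6% lower. The median log2 change of the list was 0.15 beside 0.05 over all genes. Ghr, the growth hormone receptor, fell from 549 ± 80.5 to 368 ± 94.9 CPM (log2 fold change −0.58, adjusted p = 0.026, edgeR). The feedback inhibitor Socs3 rose (1.59, adjusted p = 0.0038), as did Cux2 (2.40, 0.024), a female-biased repressor in mouse liver that another list also holds, and the leptin receptor Lepr (1.58, 0.044). The kinase Jak2 (0.35, adjusted p = 0.061) and the transcription factor Stat5b (0.35, 0.08) did not pass. At RF against LC, 2 were called higher and 3 lower, beside 11.4% and 10.7% of all genes. Ghr was higher (0.57, adjusted p = 0.037) and so was Onecut1 (3.96, 0.0028), while Cux2 (−3.02, 0.016), Socs3 (−1.21, 0.017) and Stat5b (−0.49, 0.029) were lower. The levels of Onecut1 and Cux2 were low and scattered. Onecut1 stood at 0.347 ± 0.183 CPM at LC and 5.51 ± 3.96 at RF. Cux2 stood at 1.04 ± 0.339 CPM at AL, 5.59 ± 5.06 at LC and 0.682 ± 0.336 at RF.

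Among 19 hormone receptors and regulators reported for Mup genes, 2 were called higher and 2 lower at LC against AL. Both counts lay below the shares over all genes, 16.0% higher and 15.6% lower. Srd5a1, a steroid 5-alpha-reductase, fell (log2 fold change −1.68, adjusted p = 0.00017, edgeR), as did the hepatocyte transcription factor Cebpa (−0.81, 0.0022). The nuclear receptors Nr1i3 (1.09, 0.0003) and Nr1h4 (0.65, 0.0028) rose. All 4 went the opposite way at RF against LC, the only calls of the list there, at 1.87, 0.76, −1.31 and −0.76.

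Of 27 other male-biased liver genes tested, 12 were called lower, 1 higher and 14 not called at LC against AL, at a median log2 change of −0.59 beside 0.05 over all genes, of which 15.6% were called lower. The complement gene C9 (−1.92), the organic anion transporter family gene Slc22a28 (−1.12), Cyp4a12a, a fatty acid hydroxylase (−1.08), and the glucuronosyltransferase Ugt2b1 (−1.05) had the smallest p, with adjusted p-values of at most 0.0023 in edgeR. At RF against LC, 11 were called higher and 1 lower, beside 11.4% and 10.7% of all genes. Of 23 female-biased genes, 4 were called higher and 2 lower at LC against AL, beside 16.0% and 15.6% of all genes. At RF against LC, 1 of the 23 was called higher and 7 lower. Cyp17a1 was called lower (−2.72) and then higher (2.85), against the direction of most called genes of that list. No label states the sex of the mice.

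The counts of the next lists stand beside 16.0% of all genes called higher and 15.6% lower at LC against AL. At RF against LC the shares over all genes were 11.4% higher and 10.7% lower. Of 32 abundant secreted hepatocyte proteins, 21 were called lower and 1 higher at LC against AL, at a median log2 change of −0.47. The fibrinogen chains Fga (−1.64), Fgg (−1.06) and Fgb (−0.81) and the protease inhibitor Serpina1c (−0.86) had the smallest p. At RF against LC, 10 were called higher and 1 lower. Of 10 lipocalins and related carriers, 6 were called lower and 0 higher at LC against AL, and 3 were called higher at RF against LC. The 6 included the lipocalin Orm1, an acute phase protein (−1.44, adjusted p = 0.013), and the related fatty acid binding protein Fabp1 (−0.90, 0.00083). Of 12 thyroid hormone-responsive genes, 3 were lower at LC against AL, led by Thrsp, a regulator of lipogenesis (−2.74, 0.0024), and 4 were higher at RF against LC. Of 15 glucocorticoid-responsive genes, 2 were higher at LC against AL, no more than the share over all genes. These were the kinase Sgk1 (0.73, 0.008) and the clock gene Per1 (0.89, 0.022), and both were lower at RF against LC. Of 26 genes flanking the cluster, 7 were higher and 4 lower at LC against AL, led by the collagen gene Col27a1 (1.12, 0.0016). With library totals alone the median log2 change at LC against AL was −0.3 for the male-biased genes and −0.15 for the secreted proteins, still below 0. At RF against AL, 0 genes of any of these lists were called in edgeR, beside 0.0547% of all genes. Of all genes, 10.8% had an unadjusted p below 0.05 there. At an unadjusted p below 0.05 the counts there were 9 of the 32 secreted proteins, 5 of the 23 female-biased, 3 of the 27 male-biased, 2 of the 17 growth hormone, 0 of the 19 regulator, 2 of the 15 glucocorticoid, 1 of the 12 thyroid, 0 of the 10 lipocalin and 5 of the 26 flanking genes. DESeq2 called 3 of the female-biased genes there, 1 each of the male-biased, growth hormone and flanking genes, and 0 in the other lists.

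The genes most like Mup20 in pattern, by Pearson's r of log2 CPM over 10 libraries among 9283 genes, were Cyb5r3 (0.982), Chmp4b (0.974), Calm3 (0.971), Gchfr (0.966) and Scd1 (0.965). Scd1, a stearoyl-CoA desaturase, ran from 5295 ± 1789 CPM at AL to 238 ± 109 at LC and 8862 ± 3369 at RF, a far wider range than that of Mup20. Most like the summed CPM of the 6 members were Cnih1 (0.979), Prelid1 (0.971), Cyb561d2 (0.965), Rnf121 (0.961) and Apool (0.961). Over 10 libraries in 3 groups such values describe a shared order of the groups and libraries.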

How the data were processed

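Liver RNA from 10 samples was enriched for poly(A) tails and sequenced without strand on the BGI DNBSEQ platform, with RNA integrity numbers of 6.6 to 8.5, per the labels' protocols. The authors deposited a table of expected counts, model-based estimates of which 10.9% were not whole, and a table of FPKM, scaled by length and depth. Per the submitters' processing notes, HISAT and Bowtie2 were used, with no version or role, on the build GRCm39. The sources used here do not name the program that divided reads among copies.

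Expected counts were rounded, filtered with filterByExpr (12789 of 17359 genes kept), scaled by trimmed means (TMM) and fitted with edgeR 4.0.16 (robust quasi-likelihood, all 10 libraries, R 4.3.3). P-values were Benjamini-Hochberg adjusted over all genes, with a threshold of 0.05. CPM carry the same scaling, and the SE is the size of the log2 fold change divided by the root of F. Sequence sharing came from GENCODE M21 transcripts and Biopython 1.88 alignments on GRCm38, another build than that of the counts. The edgeR fit was tested on simulated counts, which did not include the division of reads among copies. The other steps were not tested in this way.

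The members, lists and tests were chosen with earlier results of these data known. Named were all Mup genes, up to 4 genes of smallest p per list, Ghr, Jak2, Stat5b and 1 further gene, which is not reported here, and the 5 genes of highest r among those with a mean of at least 5 CPM. Alternatives were DESeq2 1.42.0, limma 3.58.1 on log2(FPKM + 1) or log2(FPKM + 0.1), other scalings and filters, the compared groups only, a replicate block and leaving out each library. Counts that differ only by how reads were divided among copies have an error beyond that of the replicates, and arise from a model not checked here.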

Additional observations from a re-analysis of the deposited data

Results flagged for a closer look

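In LC replicate 4, Mup8 made up 0.645% of the summed counts of the 6 members, against 0.158%, 0.234% and 0.162% in LC replicates 1, 2 and 3. The sample lay far from the other 3, with a gap of 0.843 of the range of the group. Of 13 groups of values examined in this way 1 stood out, and chance gives about 1 in 20. In the same library Mup2 made up 37.2% of the members' counts, the highest share of any library, and Mup8 was counted at 95.6 CPM. The part of the division of reads among copies was not tested.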

How the results depend on the processing

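The calls of Mup3, Mup20 and Mup21 at LC against AL and of Mup3 and Mup20 at RF against LC held in all 20 alternatives each, and that of Mup21 at RF against LC was lost without RF replicate 2 (0.055). The number of members called lower at LC against AL was 3 in every alternative. The number called higher was 0 with the compared groups only, without a filter and with size factors by relative log expression, and 0 to 1 when libraries were left out. At RF against AL it was 1 with the compared groups only. When libraries were left out in turn, changes that did not pass spanned 0 for Mup2 at LC against AL (−0.18 to 0.47, below 0 without LC replicate 4), for Mup1 (−0.51 to 0.18) and Mup3 (−0.31 to 0.02) at RF against AL, above 0 without AL replicate 3, for Mup20 there (−0.06 to 0.28, below 0 without AL replicates 2 or 3 or RF replicate 1) and for Mup2 (−0.33 to 0.31) and Mup8 (−1.0 to 0.23) at RF against LC, above 0 without LC replicate 4. The cause was not tested.

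Over all genes, library totals alone moved the median log2 fold change by 0.31 at LC against AL, 0.11 at RF against AL and −0.2 at RF against LC. The genes called higher and lower at LC against AL were 2045 and 1989, against 4395 and 686 with library totals alone, 4291 and 708 with log2(FPKM + 1) and 4294 and 715 with log2(FPKM + 0.1). With libraries left out they spanned 959 (without AL replicate 3; 1196 without AL replicate 4) to 2186 and 1151 (without AL replicate 3) to 2167. At RF against LC they were 1452 and 1369, against 673 and 2724, 707 and 2782, and 696 and 2681 in the same 3 settings, and spanned 792 to 1604 and 643 to 1537 with libraries left out, lowest without RF replicate 2, then RF replicate 3 (874 and 768). At RF against AL they were 2 and 5, against 40 and 60 with DESeq2, 4 and 1 with library totals alone, 1 and 0 with either FPKM setting and 5 and 8 with no filter, and between 1 and 4 higher and 0 and 10 lower when libraries were left out.

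Whether replicate numbers pair the samples was not settled. Deviations of same-numbered libraries correlated between −0.079 and 0.322, and those of differently numbered libraries between −0.238 and 0.194. The highest values were those of LC and RF replicates 1 (0.322) and of LC and RF replicates 2 (0.234). With a replicate block, the number called higher at RF against AL among all genes was 1, beside 2 in the main fit. The log2 fold changes of Mup2 and Mup8 at RF against LC were then 0.21 and 0.07, neither passing. The block changed no call of a member.

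The members' summed share was 3.21%, 2.48% and 3.47% of summed FPKM in AL, LC and RF, and 2.00%, 1.18% and 1.92% of the scaled library size. RF therefore lay above AL by 1.04 times in library counts and below it, at 0.959 times, after scaling, and LC stood at 0.73 and 0.588 times AL. For all 22 Mup genes the share of library counts was 9.37%, 5.99% and 9.46%. For the members, leaving out libraries gave 1.73% to 1.87% in AL, 1.20% to 1.41% in LC and 1.77% to 1.97% in RF libraries. With stretches of 100 bases, the shared part was 87.2% for Mup1, 97.3% for Mup2, 77.8% for Mup8, 38.8% for Mup20, 4.5% for Mup21 and 2.94% for Mup3. Mup8 had 93.5 to 1523 estimated counts a library.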

Other observations

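Mup17, with 78.1% of its stretches found in another gene, had the widest spread within LC of the 20 tested Mup genes, at 15.5, 212, 44.6 and 356 CPM in LC replicates 1 to 4. It stood at 829.5, 1535 and 1019 CPM at AL and at 656, 115 and 108 CPM at RF, so RF and AL did not overlap for it. The log2 fold change was −2.85 at LC against AL (SE 1.11, adjusted p = 0.089) and −1.94 at RF against AL (SE 1.19, adjusted p = 0.60, edgeR). Mup12 also lay lower in each RF library than in any AL library, at 908 ± 314 against 1765 ± 794 CPM (SD, n = 3), with an adjusted p of 0.59.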
